A study of Mus musculus with 12 samples.

Results

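A set of 10 genes of mitochondrial antioxidant defence was described in the tibialis anterior, a muscle of the lower hindlimb, of WT and mdx/mTR mice. The genes were the rows of the count table with the symbols Nnt, Sod2, Prdx3, Prdx5, Txn2, Txnrd2, Gpx1, Gpx4, Gsr and Cat, and 10 of 10 were found among 24421 entries. All 10 also passed the filter on low counts that left 13937 genes for testing. The set was proposed with earlier results of these libraries in view, and Nnt was chosen by its CPM values, which differed between libraries of one group, so those values are a description with no test. There were 6 libraries from C57Bl/6 (WT) males and 6 from mdx/mTR males, all 4 months of age. In mdx mice the dystrophin gene, Dmd, is disrupted, and mTR names the mouse telomerase RNA gene, Terc. Neither group is labelled as treated, and the labels give neither the C57Bl/6 substrain nor the generation of telomerase deficiency. They also do not state that each library is a separate animal, so the p-values measure the spread between these samples.

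Respiration leaks electrons to oxygen, which gives superoxide, and the manganese enzyme encoded by Sod2 turns superoxide into hydrogen peroxide inside the mitochondrial matrix. Peroxide is then removed by peroxiredoxins, which are recharged by thioredoxin, and by glutathione peroxidases, which are recharged by glutathione. Both cycles draw on NADPH, part of which is made in mitochondria by the transhydrogenase encoded by Nnt at the expense of the proton gradient. Not every product of the set is mitochondrial alone: catalase, the product of Cat, is mainly a peroxisomal enzyme, and the products of Gpx1, Gpx4, Gsr and Prdx5 are also found outside mitochondria. RNA levels were measured here, not the enzymes or their activity.

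The WT libraries held 36903560 to 40981012 counts, and the mdx/mTR libraries 35136327 to 60330410. Levels are given as CPM, counts set to a common library size after scaling of library sizes by the trimmed mean of M-values (TMM). The smallest count of any of the 10 genes in any library was 673 and the largest 18777, far above the 3 counts that a count of 0 allows. As a check of the labels, the mean of Dmd was 46.8 ± 7.20 CPM in mdx/mTR against 237 ± 6.90 CPM in WT (SD over the 6 libraries), a log2 fold change of -2.34 ± 0.09 (SE; edgeR quasi-likelihood test, adjusted p = 8.3e-10). Terc had 2 counts over all 12 libraries and checks nothing. Across the whole table, 25.0% of the genes tested were called higher in mdx/mTR and 23.4% lower at an adjusted p below 0.05. With library totals alone in place of TMM, the median change over all genes moved from 0.01 to 0.17 on the log2 scale, a shift of 0.16, and the share of calls that were higher moved from 51.6% to 78.2%. It was 59.4% with upper quartile scaling. Changes are therefore relative to the bulk of genes under TMM. In whole muscle, fewer cells of a type and less RNA per cell cannot be told apart.

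Cell type markers moved with the groups. All 8 macrophage markers and all 6 fibroblast markers were called higher in mdx/mTR. The summed macrophage level was 74.5 to 130 CPM in WT against 224 to 643 CPM in mdx/mTR, and the summed fibroblast level was 870 to 1593 CPM against 2226 to 4434 CPM. Of 5 satellite cell and myoblast markers, 4 were higher (summed level 23.6 to 33.8 against 45.0 to 104 CPM), and of 5 endothelial markers, 3 were lower (429 to 579 against 346 to 466 CPM). The 6 muscle fibre genes summed to 126454 to 151139 CPM in WT against 99406 to 137546 CPM in mdx/mTR, with 2 called higher and 1 lower. The satellite cell and myoblast marker Tmem8c, which fuses myoblasts, was at 0 in WT replicates 3 and 6, and no other marker of these lists was at 0 in any library. Among 6 erythroid markers, the globin genes Hba-a1, Hba-a2, Hbb-bs and Hbb-bt were listed at 0 in every library. The part of these shifts in the results below was not tested. A few libraries stood apart: WT replicate 2 had a summed oxidative fibre level of 7209 CPM against 3443 to 3877 CPM in the other WT libraries. Replicate 5 of mdx/mTR had the highest macrophage, fibroblast and satellite cell levels of its group, and replicate 3 had the highest adipocyte level (59.1 CPM, against 19.5 to 40.8 CPM in the rest of that group).

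The members whose levels moved most apart between the groups were Gpx1, Cat and Sod2, and the 250 bases upstream of their starts are shown to place these genes side by side (RefSeq, GRCm38.p6, 5′ to 3′ on the strand of the gene). Capitals mark CCAAT on either strand, a box of many housekeeping promoters.
Gpx1, chr9:108338830-108339079, + strand: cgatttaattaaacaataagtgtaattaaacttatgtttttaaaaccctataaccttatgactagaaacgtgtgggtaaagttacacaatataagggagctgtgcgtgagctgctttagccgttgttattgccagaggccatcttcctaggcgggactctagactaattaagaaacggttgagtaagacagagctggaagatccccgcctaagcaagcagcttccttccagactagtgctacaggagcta
Cat, chr2:103485154-103485403, - strand: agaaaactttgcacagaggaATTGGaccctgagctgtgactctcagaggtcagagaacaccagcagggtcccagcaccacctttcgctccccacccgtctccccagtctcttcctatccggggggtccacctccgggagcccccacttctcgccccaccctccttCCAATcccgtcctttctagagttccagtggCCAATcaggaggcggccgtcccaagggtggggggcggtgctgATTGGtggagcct
Sod2, chr17:13007589-13007838, + strand: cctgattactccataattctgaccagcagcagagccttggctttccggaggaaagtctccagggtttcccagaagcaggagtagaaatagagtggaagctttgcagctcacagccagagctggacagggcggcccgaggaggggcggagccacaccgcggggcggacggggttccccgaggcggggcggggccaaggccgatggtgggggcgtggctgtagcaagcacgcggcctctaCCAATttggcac
The window of Gpx1 had a G and C content of 42.0% and no CCAAT, that of Cat 62.0% with 4 matches, and that of Sod2 63.6% with a CCAAT as well. The median over 32851 windows of the same length was 52.4%. Windows were found for 8 of the 10 genes, and CCAAT occurred in 4 of the 8 (Cat, Gpx4, Sod2 and Txn2) and in 33.8% of all windows. A gene was counted if any of its windows matched, and Gpx4 had several windows. The counts of genes and the shares of windows are therefore not like measures. Other motifs were searched on both strands. The core of the antioxidant response element, TGACNNNGC, occurred in 0 of 8 and in 10.2% of all windows. The estrogen-related receptor motif AAGGTCA occurred in 0 of 8 and in 4.08%. The core of the NRF-1 site occurred in 1 of 8 (Gpx4) and in 3.74%. A match is a run of letters and not a shown binding site, and the absence of one says only that these letters are not in the window.

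Of the 9 genes tested, 2 rose in mdx/mTR (Gpx1 and Gpx4), 4 fell (Sod2, Prdx3, Txnrd2 and Cat) and 3 were not called (Prdx5, Txn2 and Gsr). The background was 25.0% of all genes called higher, 23.4% called lower and 48.3% called in either direction, so calls were common throughout the table, and the genes had been proposed with earlier results in view. The 2 that rose and 3 of the 4 that fell had groups that did not overlap, where 12.6% of all genes did so in each direction and 25.2% in either. The median log2 fold change of the 9 was -0.12, against 0.01 over all genes. With library totals alone 3 were higher, because Txn2 joined them, and 2 were lower, Sod2 and Cat. Under that scaling 40.2% of all genes were called higher and 11.2% lower. Sod2, Cat, Gpx1 and Gpx4 kept their direction and call under all 22 alternatives.

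**Figure D1:**
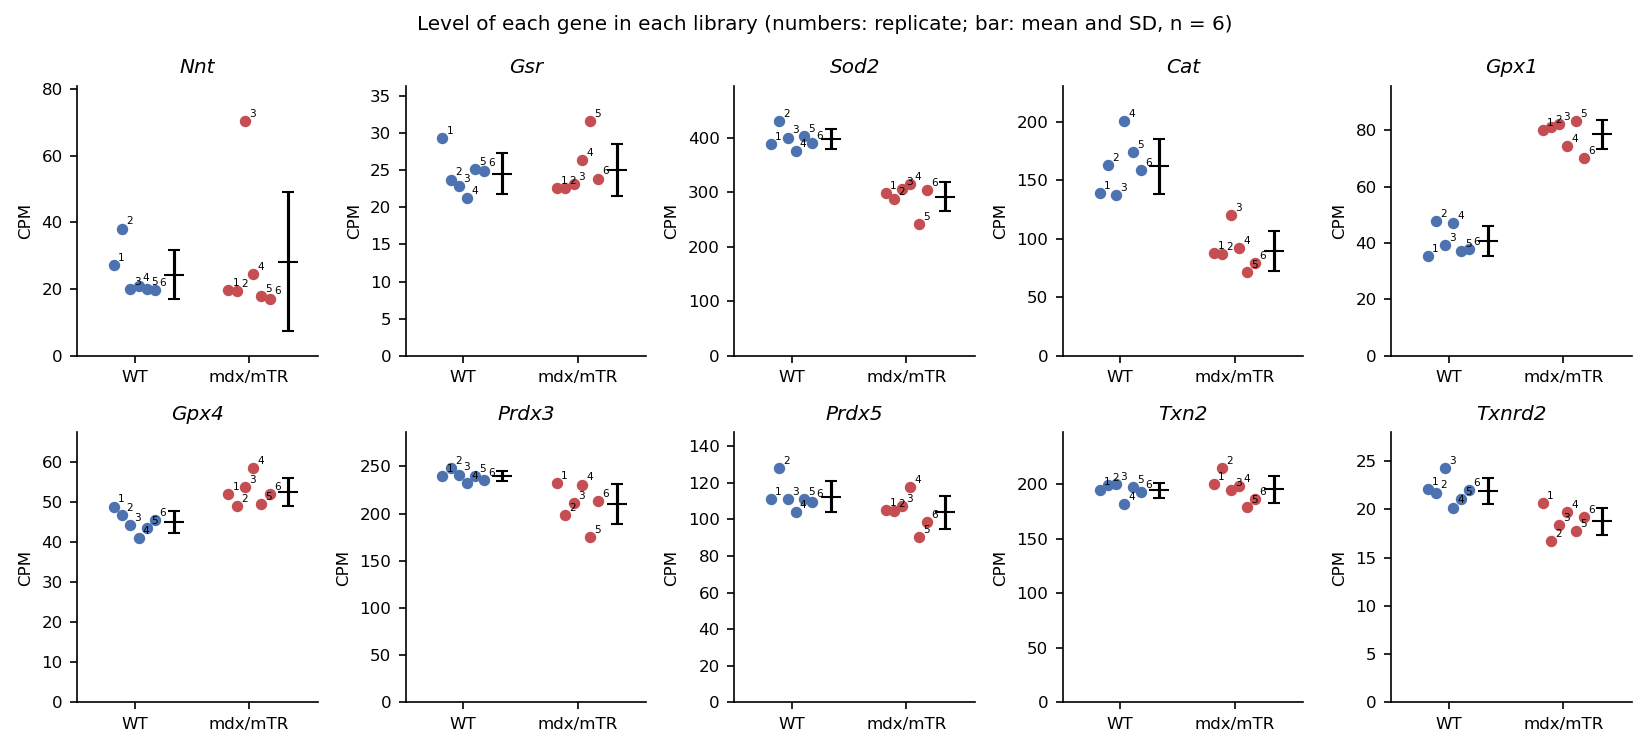
Level of each gene in CPM (vertical axes, linear from 0) in WT and mdx/mTR; each point is 1 library with its replicate number, and the bar gives mean and SD (n = 6). Nnt has 1 library far above the others of its group (70.3 CPM in mdx/mTR replicate 3), while Gpx1, Cat and Sod2 have groups that do not overlap.

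Sod2 encodes the manganese superoxide dismutase of the matrix and lies on chromosome 17 (13007839 to 13018119, + strand, RefSeq, GRCm38.p6, as all gene positions here). Its level in WT had a lowest value of 375, a median of 396 and a highest value of 430.3 CPM. In mdx/mTR the lowest was 242, the median 301 and the highest 314 CPM. Every mdx/mTR library lay below every WT library. Sod2 fell by 0.45 ± 0.06 on the log2 scale (SE), a ratio of 0.734 to WT (edgeR, adjusted p = 8.0e-05). The lowest value came from replicate 5, where the other libraries of the group had 288 to 314 CPM, and without it the log2 fold change was -0.40 (adjusted p = 2.0e-05). The summed level of 6 genes of oxidative fibres, which are rich in mitochondria, was 3443 to 7209 CPM in WT against 1824 to 3477 CPM in mdx/mTR, with replicate 5 lowest. The sum is carried by Myh2 and Mb, which were called lower (log2 fold change -1.38 and -0.56), and the call of Mb was lost with library totals alone. The low-level genes Tnni1, Myh7 and Tnnt1 of the same list were called higher (4.01, 2.02 and 1.59), Myl2 was not called, and the median of the list was 0.51. The part of these genes in the change of Sod2 was not tested.

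Cat encodes catalase, which splits hydrogen peroxide without a reductant (chromosome 2, 103453904 to 103485153, - strand). It ran from 137 CPM through a median of 161 to 200.4 CPM in WT. In mdx/mTR it ran from 71.6 CPM through 87.4 to 121 CPM, with replicate 3 highest. The groups did not overlap. Cat had the largest fall of the 9, -0.85 ± 0.12 on the log2 scale, 0.553 of the WT level (adjusted p = 7.4e-05). It also varied more than Sod2 within WT, with a coefficient of variation of 14.5% against 4.70%.

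Gpx1 encodes the most widespread glutathione peroxidase, a selenoprotein of cytosol and mitochondria (chromosome 9, 108339080 to 108340342, + strand). Its WT level had a lowest value of 35.5, a median of 38.5 and a highest value of 47.8 CPM. The mdx/mTR libraries ran from 70.2 CPM through 80.5 to 83.2 CPM. All 6 were above all 6 WT libraries. Gpx1 rose 1.93-fold, a log2 fold change of 0.95 ± 0.08 (adjusted p = 1.2e-06). It was the largest change in either direction among the 9. The macrophage and fibroblast markers rose in the same libraries. Within mdx/mTR, replicate 5 had the highest level of both lists and of Gpx1, and replicate 1, with the lowest macrophage level, had 79.9 CPM of Gpx1. Within WT, replicate 2 had the highest Gpx1 and fibroblast level. The highest macrophage level of WT was in replicate 6, where Gpx1 was at 37.8 CPM. The part of these cells in the rise of Gpx1 was not tested.

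Gpx4 encodes the peroxidase that reduces lipid hydroperoxides within membranes (chromosome 10, 80047166 to 80056439, + strand). It ran from 41.0 CPM through 44.9 to 48.9 CPM in WT, and from 49.1 CPM through 52.0 to 58.6 CPM in mdx/mTR. The groups touched without overlapping. The rise was 0.22 ± 0.05 on the log2 scale, or 1.17-fold (adjusted p = 0.00409). Of the 50-base stretches of its transcript, 61.7% also occur in another annotated gene, the processed copies Gpx4-ps2 and AC122253.3, so its count may share reads with them.

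Prdx3 and Prdx5 encode peroxiredoxins, the former located in mitochondria and the latter shared with peroxisomes and cytosol. Prdx3 (chromosome 19, 60864066 to 60874538, - strand) ran from 233 CPM through 240.1 to 249 CPM in WT. In mdx/mTR it ran from 175 CPM through 212 to 232 CPM. The highest mdx/mTR library lay just under the lowest WT library. Prdx3 fell by 0.19 ± 0.06 on the log2 scale (adjusted p = 0.0223). That call was lost with upper quartile scaling (-0.15, adjusted p = 0.0573), with library totals alone (-0.04, adjusted p = 0.465) and with WT replicate 2 and mdx/mTR replicates 3 and 5 left out together (-0.13, adjusted p = 0.0800). Its spread differed between the groups in size: the coefficient of variation was 2.28% in WT, where 1.24% of tested genes had a smaller SD on the log2 scale, and 10.2% in mdx/mTR, where 49.4% did. Prdx5 (chromosome 19, 6906697 to 6910106, - strand) ran from 104 CPM through 111 to 128 CPM in WT, and from 90.4 CPM through 105 to 118 CPM in mdx/mTR. The groups overlapped, and the log2 fold change of -0.12 ± 0.06 was not called (adjusted p = 0.153). Prdx5 shares 28.3% of its exon bases with Trmt112 on the opposite strand, and no source used here says whether strand was counted.

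Txn2 and Txnrd2 encode mitochondrial thioredoxin and the selenoprotein reductase that recharges it with NADPH. Txn2 (chromosome 15, 77915051 to 77928994, - strand) ran from 182 CPM through 196 to 199.9 CPM in WT, and from 179 CPM through 196 to 215 CPM in mdx/mTR. The medians were alike and the mdx/mTR range covered that of WT. Its log2 fold change was 0.01 ± 0.05 (adjusted p = 0.898). With library totals alone it was 0.16 (adjusted p = 0.0145). Txnrd2 (chromosome 16, 18426417 to 18479073, + strand) ran from 20.2 CPM through 21.9 to 24.3 CPM in WT, and from 16.7 CPM through 18.8 to 20.7 CPM in mdx/mTR. The highest mdx/mTR library overlapped the lowest WT library. Txnrd2 fell by 0.22 ± 0.06 on the log2 scale (adjusted p = 0.00807), and was not called with library totals alone (-0.07, adjusted p = 0.289).

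Gsr encodes glutathione reductase, which returns oxidised glutathione to its reduced form (chromosome 8, 33653238 to 33698162, + strand). It ran from 21.2 CPM through 24.3 to 29.3 CPM in WT, and from 22.5 CPM through 23.5 to 31.6 CPM in mdx/mTR. The groups overlapped, and replicate 5 was the highest of mdx/mTR. Its log2 fold change of 0.03 ± 0.09 was not called (adjusted p = 0.834).

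**Figure D2:**
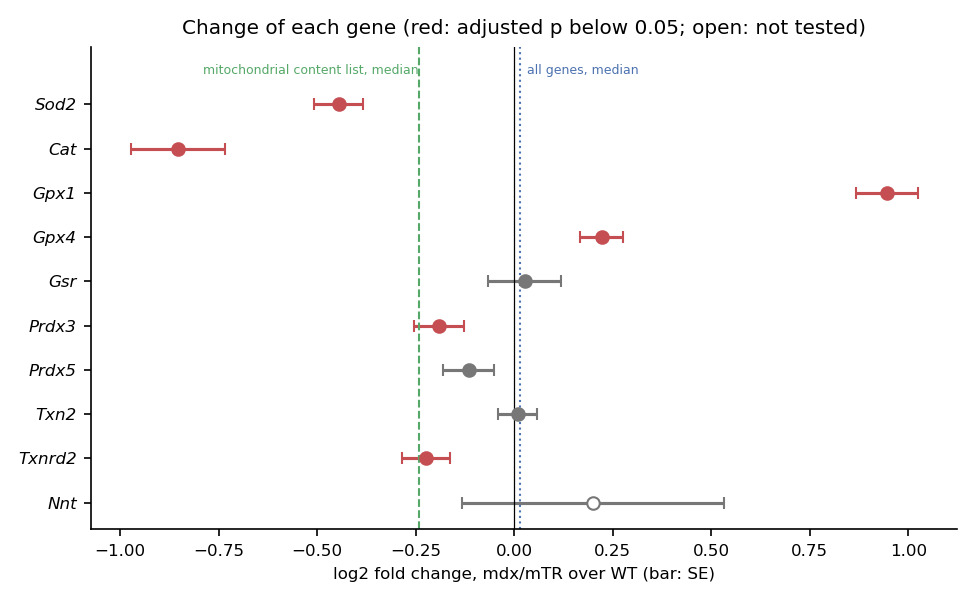
Log2 ratio of mdx/mTR to WT (horizontal axis) with its SE for each gene; red marks an adjusted p below 0.05, grey no call, and the open symbol Nnt, which was not tested. The dotted line is the median of all genes tested (0.01) and the dashed line the median of 15 mitochondrial content genes (-0.24); Cat and Sod2 lie to the left of both and Gpx1 and Gpx4 to the right.

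The genes differed in abundance. Per kilobase of exon, WT levels were highest for Prdx3 (162 ± 3.71 CPM per kb, SD, n = 6) and Prdx5 (77.8 ± 5.68). Sod2 (67.9 ± 3.19) and Cat (62.0 ± 9.01) came next, with ranges of 64.0 to 73.4 and 52.6 to 76.7 CPM per kb that overlapped. Txn2 followed at 49.9 ± 1.73, and Gpx1 (38.0 ± 4.95) and Gpx4 (35.4 ± 2.15) again had overlapping ranges. Gsr (9.17 ± 1.04), Txnrd2 (6.35 ± 0.40) and Nnt (5.55 ± 1.67 CPM per kb) were the lowest, and the range of Nnt (4.47 to 8.69) covered that of Txnrd2 (5.85 to 7.05). In mdx/mTR, Gpx1 reached 73.2 ± 4.76 CPM per kb, while Sod2 was at 49.9 ± 4.44 and Cat at 34.3 ± 6.43. The order depends on the length used: with the longest coding transcript in place of all exons, Txn2 had 94.8 CPM per kb in WT and ranked just after Prdx3.

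Each of 4 mitochondrial genes was set against the gene of the corresponding enzyme outside mitochondria, as a ratio within a library that does not depend on scaling between libraries. Sod2/Sod1, the manganese over the copper and zinc dismutase, was 4.38 to 5.96 in WT (median 4.73) and 3.90 to 4.47 in mdx/mTR (median 4.19). The groups overlapped, and the log2 difference was -0.22 ± 0.07 (SE; two-sided exact permutation test, p = 0.00433, adjusted over 4 ratios p = 0.00866). Txn2/Txn1, the mitochondrial over the cytosolic thioredoxin, was 5.71 to 6.89 in WT (median 6.30) and 3.98 to 5.72 in mdx/mTR (median 5.35). The groups overlapped slightly, and the difference was -0.33 ± 0.09 (exact permutation p = 0.00433, adjusted p = 0.00866). Txn2 itself was not called, whereas Txn1 rose from 30.7 to 39.0 CPM (log2 fold change 0.34, edgeR adjusted p = 7.1e-04). Prdx3/Prdx1 had a log2 difference of 0.05 ± 0.08 (exact permutation p = 0.515, adjusted p = 0.515), and both genes fell (Prdx1 by 0.25, edgeR adjusted p = 0.00178). Txnrd2/Txnrd1 had a difference of 0.14 ± 0.11 (exact permutation p = 0.214, adjusted p = 0.286), and Txnrd1 fell by 0.36 on the log2 scale (edgeR adjusted p = 0.00368). Sod1 fell by 0.24 (edgeR adjusted p = 0.00877). The falls of Prdx1, Txnrd1 and Sod1 were not called with library totals alone. Part of the Sod1 transcript (23.1% of 50-base stretches) and of Prdx1 (10.9%) also occurs in other annotated genes.

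**Figure D3:**
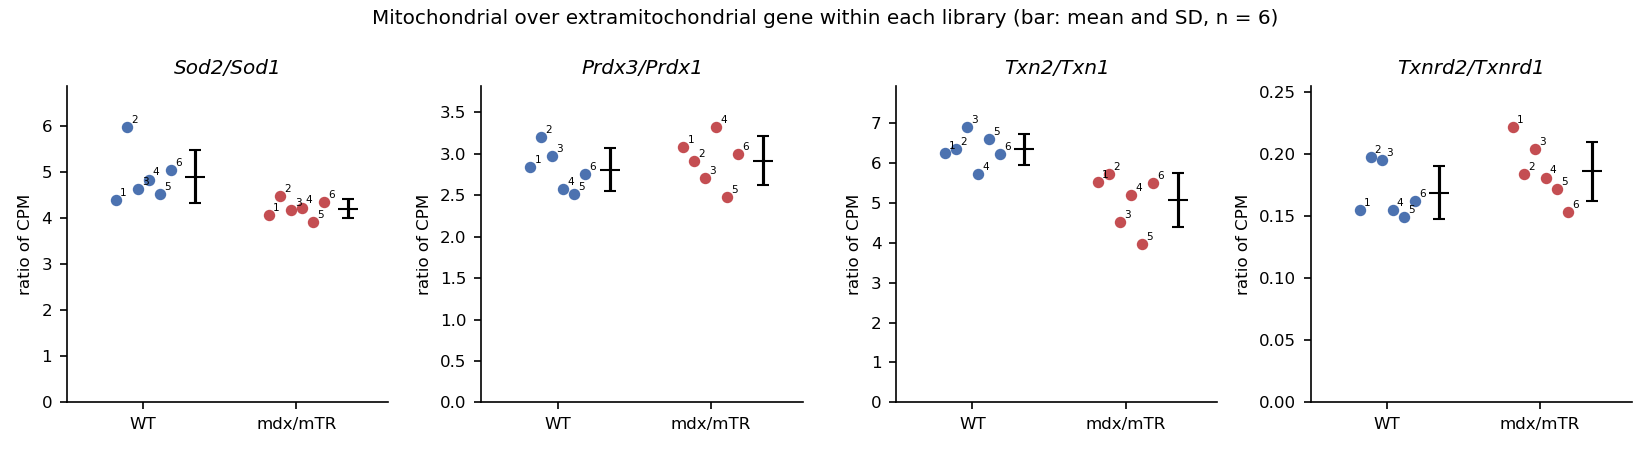
Ratio of the CPM of a mitochondrial gene to that of its extramitochondrial counterpart (vertical axes, linear from 0) in each library, with replicate numbers; the bar gives mean and SD (n = 6). Medians were lower in mdx/mTR for Sod2/Sod1 (4.19 against 4.73) and Txn2/Txn1 (5.35 against 6.30).

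The other genes of the antioxidant system and of mitochondria were read from 7 lists holding 89 genes, 88 of them tested. Over all genes tested, 25.0% were called higher, 23.4% lower and 48.3% in either direction. With library totals alone, the shares were 40.2% higher and 11.2% lower. Counts of a list near these shares say nothing particular about that list. Among 11 genes of superoxide and peroxide removal outside the set, 5 rose, 4 fell and 2 were not called (median log2 fold change 0.11). The 3 with the smallest p were Gpx8, a peroxidase of the endoplasmic reticulum (4.37 to 9.93 CPM, log2 fold change 1.18, adjusted p = 4.3e-05), Sod3, the secreted dismutase (8.98 to 17.6 CPM, 0.97, adjusted p = 4.7e-05), and Prdx4, a peroxiredoxin of the secretory pathway (4.33 to 7.30 CPM, 0.75, adjusted p = 1.6e-04). These 3 act outside mitochondria. The 4 genes of this list that fell were Prdx6, Oxr1, Prdx1 and Sod1 (log2 fold change -0.29, -0.28, -0.25 and -0.24). Fibroblast and macrophage markers rose in the same libraries, and the part of these cells in the changes of this list was not tested.

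Of 12 thioredoxin and glutaredoxin genes, 1 rose, 7 fell and 4 were not called (median -0.19). Msrb2, a mitochondrial methionine sulfoxide reductase, went from 20.3 to 14.4 CPM (-0.49, adjusted p = 2.5e-04) and its relative Msrb3 from 278 to 202 CPM (-0.46, adjusted p = 3.2e-04). Txn1 was the riser. Scaled by library totals alone, 2 of the 12 rose and 2 fell, and with the 3 libraries named above left out 5 were called in all. Of 15 tested genes of glutathione synthesis, transfer and import, 1 rose, 6 fell and 8 were not called (median -0.20). Mgst1, a membrane-bound glutathione transferase, fell from 34.8 to 15.6 CPM (-1.16, adjusted p = 4.7e-06), Gsta4, which conjugates lipid aldehydes, fell by 0.47 on the log2 scale (adjusted p = 9.6e-04), and Slc25a39, the mitochondrial glutathione importer, fell from 63.3 to 50.6 CPM (-0.32, adjusted p = 0.00204). Slc25a39 was not called with library totals alone, where 2 of these 15 rose and 3 fell.

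NADPH supply split in both directions, with 6 of 13 genes higher, 4 lower and 3 not called (median 0.15). Me1, the cytosolic malic enzyme, fell from 185 to 106 CPM (-0.81, adjusted p = 8.0e-05), and Nadk2, the mitochondrial NAD kinase, fell from 55.5 to 40.2 CPM (-0.47, adjusted p = 1.6e-04). Me2, a mitochondrial malic enzyme that mainly uses NAD, rose from 4.17 to 7.92 CPM (0.92, adjusted p = 3.1e-04). Me3, the mitochondrial malic enzyme that uses NADP, fell from 122 to 98.7 CPM (-0.30, edgeR adjusted p = 0.00686). That call was lost with library totals alone. Idh2, a mitochondrial isocitrate dehydrogenase that makes NADPH, was not called (169 to 137 CPM, -0.30, adjusted p = 0.247). Library totals alone gave 7 higher and 2 lower. Of 10 selenoprotein genes and genes of their synthesis, 1 rose, 3 fell and 6 were not called (median -0.11). Calls were thus no more frequent here than over all genes, where 48.3% were called. Sepp1, the secreted selenium carrier, rose from 207 to 336 CPM (0.70, adjusted p = 5.7e-06), Pstk, a kinase of selenocysteine synthesis, fell by 0.35 on the log2 scale (adjusted p = 2.3e-04), and Sepw1, a muscle selenoprotein, fell from 667 to 528 CPM (-0.34, adjusted p = 0.00111).

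Among 12 regulators of antioxidant and mitochondrial genes, 5 fell and 7 were not called (median -0.14), while with library totals alone 3 rose and 3 fell. Ppargc1b, a coactivator of mitochondrial genes, fell from 22.9 to 13.3 CPM (-0.78, adjusted p = 2.8e-04), and Esrra, a nuclear receptor it binds, from 154 to 113 CPM (-0.45, adjusted p = 2.8e-04). Keap1, which marks the antioxidant regulator NRF2 for degradation, fell by 0.28 on the log2 scale (adjusted p = 0.00114). Nfe2l2, the gene of NRF2, had 0.05 (adjusted p = 0.630), and 0.20 with library totals alone (adjusted p = 0.0222). Of 15 mitochondrial content genes, 12 fell and 3 were not called (median -0.24). The 3 with the smallest p were Hspd1, the matrix chaperonin (107 to 73.3 CPM, -0.55, adjusted p = 1.3e-06), Ndufs1 of complex I (-0.33, adjusted p = 0.00163) and Cox4i1 of complex IV (-0.25, adjusted p = 0.00281). Library totals alone gave 2 lower and 1 higher. Sod2 at -0.45 had a larger fall than 14 of these 15 genes, Hspd1 being the exception, and Cat at -0.85 a larger fall than all 15; these differences were not tested.

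**Figure D4:**
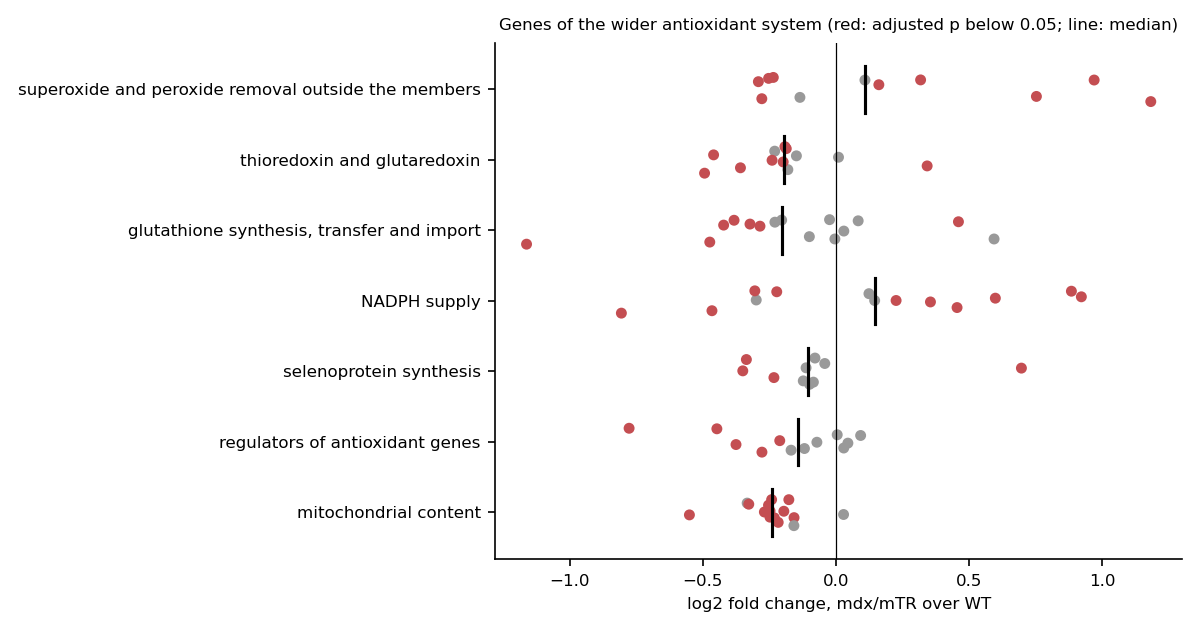
Log2 ratio of mdx/mTR to WT (horizontal axis) for each tested gene of the 7 lists; red marks an adjusted p below 0.05, grey no call, and the black line the median of a list. Points of mitochondrial content lie almost all to the left of 0 (12 of 15 called lower), while those of NADPH supply lie on both sides (6 higher, 4 lower).

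Nnt encodes the NAD(P) transhydrogenase of the inner mitochondrial membrane and lies on chromosome 13 (119335527 to 119409257, - strand). The C57BL/6J substrain is known to carry a deletion within Nnt; the table gives 1 count per symbol, so it does not show which exons were read. The 6 WT libraries had, in order of replicate number, 27.3, 38.2, 20.01, 21.1, 20.1 and 19.6 CPM. The 6 mdx/mTR libraries had 19.8, 19.4, 70.3, 24.5, 17.9 and 17.2 CPM. Replicate 3 of mdx/mTR stood alone at the top, and WT replicate 2 was next. The remaining libraries lay between 19.6 and 27.3 CPM in WT and between 17.2 and 24.5 CPM in mdx/mTR. The mdx/mTR replicate 3 value was 3.62-fold the median of the other 5 (19.4 CPM), whose mean was 19.8 ± 2.86 CPM, and WT replicate 2 was 1.90-fold the median of its group's other 5, whose mean was 21.6 ± 3.23 CPM. Among 13937 genes, 105 had a larger SD on the log2 scale within mdx/mTR and 469 within WT. Nnt was chosen for its spread, so these places follow from that choice.

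The group means of Nnt, 28.2 ± 20.8 CPM in mdx/mTR against 24.4 ± 7.34 CPM in WT (SD, n = 6), differed by less than the spread between libraries. The log2 fold change of 0.20 ± 0.33 (SE, no test) rested on single libraries. It was -0.30 without mdx/mTR replicate 3, 0.37 without WT replicate 2, and -0.10 without both of these and mdx/mTR replicate 5. None of the other 9 genes was highest of its group in both mdx/mTR replicate 3 and WT replicate 2, as Nnt was. Replicate 3 had the highest Cat of its group (121 CPM), and its Sod2 of 306 CPM lay inside the range of its group. WT replicate 2 had the highest Sod2, Prdx3, Prdx5 and Gpx1 of WT as well as the highest Nnt and oxidative fibre level.

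In mdx/mTR replicate 3, Nnt ranked 4 of 9509 genes with a mean of at least 5 CPM by the fold over the median of the other 5 libraries. Nnt was chosen by its values and replicate 3 by its high Nnt, so a high rank follows from that choice. Ahead of Nnt were Cyp2e1, a cytochrome P450 (4.10-fold), Gm7120 (3.81-fold) and Cish, a suppressor of cytokine signalling (3.65-fold), and 22 genes were above 2-fold. The level of Nnt was compared with that of its neighbours on chromosome 13, the 5 nearest tested genes on each side. The sides differed in distance. The 5 genes at higher coordinates start 19.1 to 281 kb from the end of Nnt. Those at lower coordinates lie farther off: Mrps30, the nearest, ends at 118387252 and Itga1 starts at 114958079, where Nnt starts at 119335527. On the side of lower coordinates, Itga1, Pelo, Parp8, Emb and Mrps30 had folds of 0.927, 1.01, 0.920, 1.04 and 0.958. On the other side, Paip1 (0.976), 4833420G17Rik (1.06) and Hmgcs1 (0.966) were also near 1, whereas Gm7120 (3.81) and Ccl28 (4.45) were not. A level well above the other mdx/mTR libraries was therefore shared by 2 of the 10 neighbours. Paip1 and 4833420G17Rik, which lie between Nnt and these 2, did not show it.

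Gm7120 (RefSeq symbol Tmem267) starts 78.8 kb from the end of Nnt (chromosome 13, 119488086 to 119610459), beyond Paip1 and 4833420G17Rik. Its levels in mdx/mTR were 7.77, 6.57, 25.0, 11.5, 5.62 and 5.17 CPM in order of replicate number. In WT they were 15.4, 18.6, 18.8, 12.7, 27.1 and 16.3 CPM. The 25.0 CPM of mdx/mTR replicate 3 thus lay inside the WT range, and the other mdx/mTR libraries lay below that range. For Nnt, the 70.3 CPM of mdx/mTR replicate 3 lay above every WT library. Replicates 3 and 4 were the highest 2 of mdx/mTR for Gm7120 and for Nnt. In WT the highest library was replicate 5 for Gm7120 and replicate 2 for Nnt. The log2 fold change of Gm7120 was -0.84 ± 0.35 (edgeR adjusted p = 0.0589, not called). Ccl28, a chemokine gene, was at 0.192 to 1.61 CPM in mdx/mTR and 0.159 to 1.91 CPM in WT, so its fold rests on low levels. Replicate 4 of mdx/mTR had 1.25 CPM of Ccl28, near the 1.61 CPM of replicate 3.

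**Figure D5:**
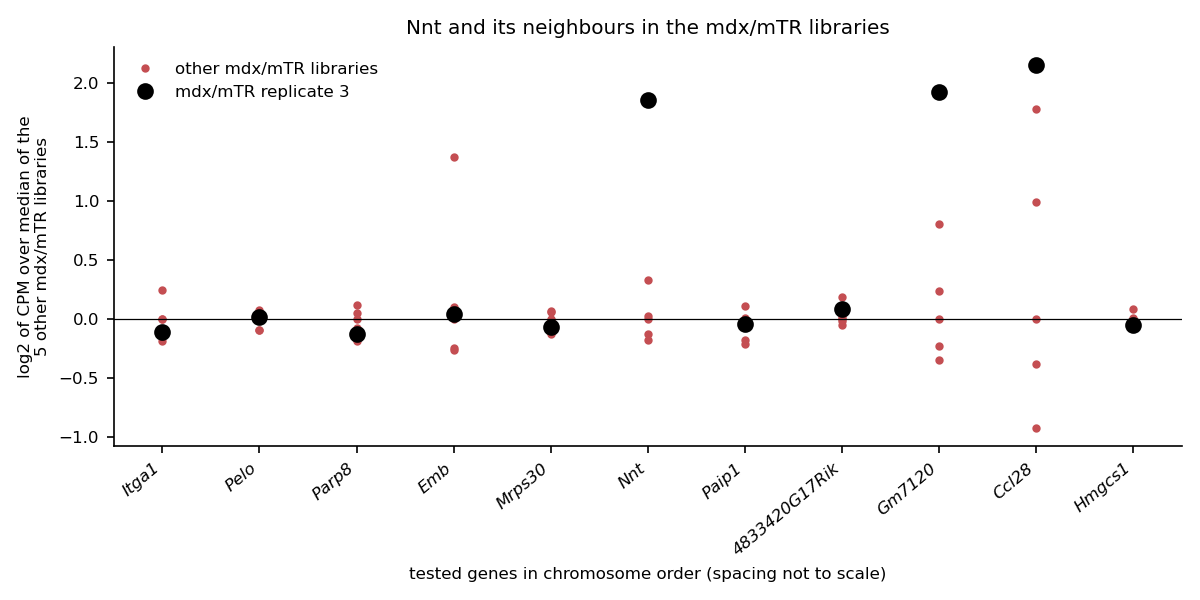
Log2 of the CPM over the median of the other 5 mdx/mTR libraries (vertical axis) for Nnt and the 5 tested genes on each side in chromosome order (horizontal axis, not to scale); the large symbol is mdx/mTR replicate 3 and small symbols are the other mdx/mTR libraries. Replicate 3 stands high at Nnt (3.62-fold), Gm7120 (3.81-fold) and Ccl28 (4.45-fold) and near 0 at the other 8 genes.

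The genes whose profile over the 12 libraries was most like that of Nnt were found by the root mean square difference of log2(CPM + 0.5) after centring each gene, among 9508 genes. They were Cfd (0.37), Pi16 (0.39), Efr3b (0.39), Tbkbp1 (0.39) and Cecr2 (0.40), where a flat profile would give 0.55, the spread of Nnt itself. The likeness was therefore weak. Over the 6 mdx/mTR libraries alone, a flat profile would give 0.70. There the nearest were Gm7120 (0.20), Cyp2e1 (0.26), Slc25a34 (0.28), Acss1 (0.37) and Homer2 (0.39), and 0 of these 5 were among the first 5. The gap of replicate 3 to its neighbour was 0.862 of the range of Nnt in mdx/mTR. These 5 were therefore found mainly by their level in that library, as Gm7120 and Cyp2e1 were above. Cfd is an adipocyte marker and part of the summed adipocyte level, which was highest in mdx/mTR replicate 3. There Cfd gave 43.6 of the 59.1 CPM, so the sum is not separate from Cfd. The part of adipocytes in the level of Nnt was not tested. The other 9 genes of the set were in neither group of 5.

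In the authors' deposited table, 6 of the 9 genes were called at an adjusted p below 0.05, where 50.1% of all genes with a value were. The authors' deposited table gave log2 fold changes of -0.45 for Sod2, -0.84 for Cat, 0.92 for Gpx1 and 0.21 for Gpx4. For Nnt the authors' deposited table had 0.16.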

How the data were processed

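Messenger RNA of the tibialis anterior was sequenced in 12 samples, 6 per group, grouped by the labels' titles. The authors deposited whole-number counts per gene symbol, in a table with 24421 entries of which 5131 had no count, and 0 sample columns were left unmatched. The authors' deposited comparison table gives, by its column names, a normalized signal averaged over samples, the log2 fold change and its error, the test's score, and p-values, per the file headers. The submitters' processing notes name FastQC, STAR, DESeq2 and mm10. The counter, the annotation, the use of strand and versions are not given in the sources used here. Symbols were converted for 4 list genes through RefSeq synonyms.

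Counts were tested with edgeR 4.0.16 in R 4.3.3 (filterByExpr, TMM, glmQLFit and glmQLFTest, group as the only term), adjusted by Benjamini-Hochberg over 13937 genes holding 99.97% of counts, threshold 0.05. The SE is the log2 fold change over the square root of F. Ratios used two-sided exact permutation tests (scipy 1.17.1), whose smallest p is 0.00216. Alternatives were other filters and scalings, DESeq2 1.42.0, limma-voom (limma 3.58.1), a threshold of 0.01, a replicate block and each library left out. Leaving out 3 libraries together was added after seeing the data. The procedure was tested on simulated counts in which 200 of 13937 genes were changed. There edgeR recovered 64% of genes changed by 0.5 on the log2 scale and 91% of those changed by 1, with 11 false calls. Far fewer genes were changed there than were called here, so the simulation does not test the scaling. The members and lists were chosen with earlier results of these data known. Genes named beyond the members and their ratio partners were the 3 smallest p of each list. The 5 nearest profiles to Nnt and its 5 tested neighbours on each side were also named. Cyp2e1, Cish, the profiles within mdx/mTR, Idh2, Me3, Nfe2l2, Prdx6 and Oxr1 were chosen after values were seen. A count of 3 corresponds to 0.0497 to 0.0854 CPM and covers counting error only. Replicates differed by more than sampling noise (chi-square per degree of freedom 9.10 to 128). Positions, promoter windows and gene order came from RefSeq (GRCm38.p6, the assembly of mm10), and exon lengths and shared 50-base stretches from GENCODE M21. Python 3.11.15 and pandas 2.3.3 were used.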

Additional observations from a re-analysis of the deposited data

Results flagged for a closer look

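Among 26 groups of 6 values checked (levels of 9 genes, Nnt left out because its values chose it, and the 4 ratios, in both groups), 2 had an extreme library whose gap to its neighbour was above Dixon's 95% critical value as a share of the range of the group, where chance gives about 1.3. Prdx5 in WT replicate 2 (128 CPM, the others 104 to 111 CPM) had a gap of 0.699. Sod2 in mdx/mTR replicate 5 (242 CPM, the others 288 to 314 CPM) had a gap of 0.636.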

How the results depend on the processing

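Calls of Sod2, Gpx1, Gpx4 and Cat held under all 22 alternatives. The number of members called lower was 2 with library totals alone in place of 4. Over all genes the share called lower was 11.2% in place of 23.4%. Leaving out each library in turn left 2 higher and 4 lower, 6081 to 6771 genes called and 49 to 55 of the list genes called. The log2 fold change of Nnt was -0.00286 with limma-voom, -0.30 without mdx/mTR replicate 3, 0.37 without WT replicate 2 and -0.10 without 3 libraries. Those of genes with no call changed sign: Prdx5 to 0.0372 with library totals alone, Txn2 to -0.0100 without WT replicate 4 and -0.0207 without mdx/mTR replicate 2 (up to 0.0295 without mdx/mTR replicate 5), and Gsr to -0.0121 without WT replicate 4, -0.0550 without mdx/mTR replicate 5 (up to 0.0843 without WT replicate 1) and -0.0562 without 3 libraries; the cause was not tested. Replicate numbers were shared by both groups, but deviations correlated above 0.1 in 2 of 6 same-numbered pairs and 4 of 12 libraries correlated best with their own number. With the replicate block, 6420 genes were called in place of 6736, and the ratio differences of -0.22 for Sod2/Sod1 and -0.33 for Txn2/Txn1 had adjusted exact permutation p = 0.0625, as 6 pairs allow few sign changes. With single libraries left out, these ranged from -0.25 to -0.16 and from -0.37 to -0.26, Prdx3/Prdx1 from 0.01 to 0.10 and Txnrd2/Txnrd1 from 0.09 to 0.19. Thioredoxin and glutaredoxin genes called went from 8 to 4 and mitochondrial content genes from 12 to 3 with library totals alone, and to 4 and 5 at a threshold of 0.01.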
